A study of Mus musculus with 9 samples.

Results

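The genes described here are 35 genes of the G2 phase and of mitosis, chosen by their gene symbols, and their expression was measured in the colon of 9 mice on microarrays. The choice was made with earlier results of these data known, so shares of the list set beside all probe sets are descriptions and not tests. A probe set, the group of short probes that reads 1 transcript, named 33 of the 35 genes alone, among 12393 genes named in this way on the array. Ccnb1 and Cdca8 were not analysed here. For a gene with several probe sets, the one with the highest mean signal over the 9 arrays was used. Of the 33 genes, 29 were bright enough to be tested. Foxm1, Ttk, Kif20a and Cenpe lay below the limit, with mean signals of 47.1, 65.7, 67.0 and 68.6, and the dimmest genes that were tested were Nek2 at 80.0 and Bub1b at 80.6. The values of these 4 untested genes are given without a p-value, and medians and counts of direction cover all 33 genes.

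The arrays held RNA from the proximal colon of 3 wild-type, 3 heterozygous and 3 mutant mice for cSHMT, the cytosolic serine hydroxymethyltransferase encoded by Shmt1, which passes one-carbon units from serine to folate. All mice were C57Bl/6, the line having been crossed back to that strain for 10 generations, and were 9 weeks old. All 3 genotypes shared a diet that lacked folate and choline, given from weaning at 3 weeks. One label gives the time on the diet as 6 weeks and another as 5 weeks. No mice on a diet with folate were part of the series, and the labels do not say how the Shmt1 allele was made. The tissue was whole opened colon, so RNA of crypt, surface, immune, muscle and other cells was measured together. In such bulk tissue, a change in the number of dividing cells and a change in RNA per dividing cell cannot be told apart.

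Mitosis is driven by Cdk1 bound to A- and B-type cyclins, whose RNA and protein build up in G2. The transcription factor FOXM1 and the MuvB complex with B-MYB switch on most mitotic genes together. Polo and Aurora kinases then build the spindle, the spindle checkpoint delays anaphase until each kinetochore is attached, and the anaphase-promoting complex ends mitosis by marking cyclins and securin for destruction. In the colon these genes are expressed mainly in the transit-amplifying cells of the lower crypt, where the epithelium is renewed.

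The Shmt1 labels were checked first. The probe set that differed most had a signal of 595 ± 43.2 (SD, n = 3) in wild-type, 303 ± 31.6 (SD, n = 3) in heterozygous and 117 ± 3.46 (SD, n = 3) in mutant colons, with a log2 fold change of -2.19 in mutants (SE 0.134, limma's adjusted p = 2.64e-05). The brightest Shmt1 probe set had mean signals of 494, 418 and 258 and a log2 fold change of -0.89 (SE 0.176, limma's adjusted p = 0.596). A further tested one stood at -0.79 (SE 0.139, limma's adjusted p = 0.309). The epithelial marker Epcam lay between 3250 and 3910 on the 9 arrays. The beta-actin control, whose 3′ to 5′ signal ratio grows with RNA degradation or incomplete amplification, was 5.02, 4.45 and 4.84 on the wild-type, heterozygous and mutant arrays numbered 1, against 2.52 to 3.75 on the other 6 arrays. The median and the count of higher genes over all measured mitosis genes are therefore also given without the 3 arrays numbered 1. So are the log2 fold changes against wild-type of those mitosis genes given on every array. Counts and medians of smaller groups of mitosis genes by role, and counts of overlap, are given only with all 9 arrays. Log2 signals of any 2 arrays correlated between 0.986 and 0.993 across probe sets.

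The promoters of these genes are shown because many of them share the same short elements. RefSeq promoter windows on GRCm38.p6, running from 250 bases before to 50 bases after the transcription start, were found for 29 of the 35 genes. The letters TTTGAA, the core of the cell cycle genes homology region to which MuvB complexes bind, were searched on both strands and lay in 21 of the 29 windows, or 72.4%. They lay in 18.1% of the windows of all 27025 genes and in 16.5% of those of 17491 protein-coding genes. The letters CCAAT, the box bound by the factor NF-Y, lay in 25 windows, or 86.2%, against 37.9% of all genes. Both elements lay in 20 windows, or 69%, against 7.12% of all genes, with overlapping matches counted. Nusap1, Mad2l1 and Birc5 had neither in this window. A match describes the letters and does not show binding. The sequences below give the 100 bases before and the 20 bases after the start of the 4 genes with the smallest p in mutant against wild-type colons and of Bub1, which differed from the rest in direction. Each reads 5′ to 3′ along the gene's strand, and capitals mark both elements; the CCAAT box reads ATTGG where it lies on the other strand. Cenpf lies at chr1:189688067-189688186 on the minus strand, Nek2 at chr1:191821373-191821492 on the plus strand, Cdc20 at chr4:118437324-118437443 on the minus strand, Ccnb2 at chr9:70421535-70421654 on the minus strand and Bub1 at chr2:127831840-127831959 on the minus strand.
Cenpf: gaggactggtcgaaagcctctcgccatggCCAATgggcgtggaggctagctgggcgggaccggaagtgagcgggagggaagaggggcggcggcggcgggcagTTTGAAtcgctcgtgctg
Nek2: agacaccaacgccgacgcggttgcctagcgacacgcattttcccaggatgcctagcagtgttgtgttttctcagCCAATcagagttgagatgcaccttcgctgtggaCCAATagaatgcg
Cdc20: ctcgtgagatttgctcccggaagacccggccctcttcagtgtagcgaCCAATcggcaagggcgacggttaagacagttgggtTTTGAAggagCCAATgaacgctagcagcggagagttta
Ccnb2: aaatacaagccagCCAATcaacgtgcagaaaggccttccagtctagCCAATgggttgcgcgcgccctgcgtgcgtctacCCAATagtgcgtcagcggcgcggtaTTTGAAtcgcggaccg
Bub1: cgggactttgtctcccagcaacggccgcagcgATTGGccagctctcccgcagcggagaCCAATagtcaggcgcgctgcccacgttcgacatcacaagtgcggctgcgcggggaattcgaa
In Ccnb2, 3 CCAAT boxes precede the TTTGAA, whose first base is base 5 after the start. In Cenpf the TTTGAA begins at base 3 after the start and in Cdc20 at base 18 before it. The Nek2 and Bub1 windows each held 2 CCAAT boxes and no TTTGAA.

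In mutant against wild-type colons, nearly all mitosis genes had a higher mean log2 signal in the mutants, by a small amount each, and none passed the test across the whole array. Of the 33 genes, 32 were higher (31 with values as deposited or with median centring), or 97%, against 51% of the 13576 probe sets tested. The exception was Bub1, a kinase of the spindle checkpoint. The median log2 fold change of the 33 genes was 0.24, a fold of 1.18, against 0.0036 for all probe sets tested. No gene had an adjusted p under 0.05, a threshold that 3 probe sets, or 0.0221%, passed, all of them lower in mutants. The adjusted p of each of the 29 tested genes was 0.998. An unadjusted p under 0.05 was found for 7 of the 29, all higher (24.1%), against 1.92% of all probe sets that were higher at that limit. For 6 of the 29, or 20.7%, all 3 mutant arrays lay above all 3 wild-type arrays, against 4.04% of all probe sets, and none lay wholly below, against 2.95%. These 6 genes were Cenpf, Nek2, Cdc20, Ccnb2, Plk1 and Mad2l1. Nek2 counts in both shares, but its mean signal in wild-type was 61.1, below the limit for testing of about 75.5. It passed that limit through the heterozygous and mutant arrays, with means of 83.6 and 95.4. Whether arrays overlap is described on the deposited signals, since these are printed. On the normalized values behind the fold changes, the same 6 genes lay above and none below, against 4.23% and 4.19% of all probe sets.

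**Figure D1:**
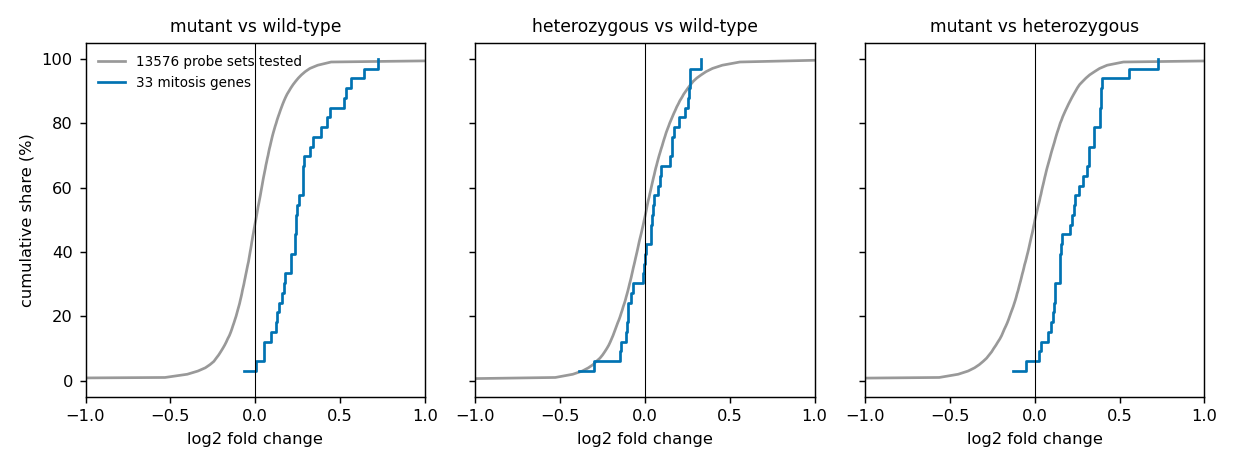
The cumulative share of genes in percent (vertical axis) is plotted against the log2 fold change (horizontal axis) for the 33 mitosis genes (blue steps) and the 13576 probe sets tested (grey line) in each comparison. The blue steps lie to the right of the grey line in both comparisons with mutants, with medians of 0.24 and 0.22, and near it for heterozygous against wild-type, with a median of 0.042.

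The size of this difference depended on single arrays. Mutant 1 held the highest of the 9 normalized signals for 23 of the 33 genes and mutant 3 for 9. Mutant 2 held none and lay above all 3 wild-type arrays for 7 genes, against 29 for mutant 1 and 28 for mutant 3. Averaged over the 33 genes, the 3 wild-type arrays had log2 signals of 8.04, 8.19 and 8.24 in the order of their numbers, the heterozygous arrays 8.30, 8.25 and 8.05, and the mutant arrays 8.63, 8.16 and 8.50. Mutant 1 and mutant 3 were thus above every other array, and mutant 2 lay within the wild-type range. Without mutant 2 the median log2 fold change was 0.38, all 33 genes were higher and 21 had an unadjusted p under 0.05. Without mutant 1 the median was 0.15, and without mutant 3 it was 0.20, with 4 genes at that limit in each case. Without wild-type 1, the lowest array for 10 genes, the median was 0.16 and 4 genes reached the limit. Without the 3 arrays numbered 1, the median was 0.086, 22 of 33 genes were higher and 3 reached the limit. With the beta-actin ratio as a covariate in the fit, the median was 0.25, and 32 genes were higher and 7 reached the limit.

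**Figure D2:**
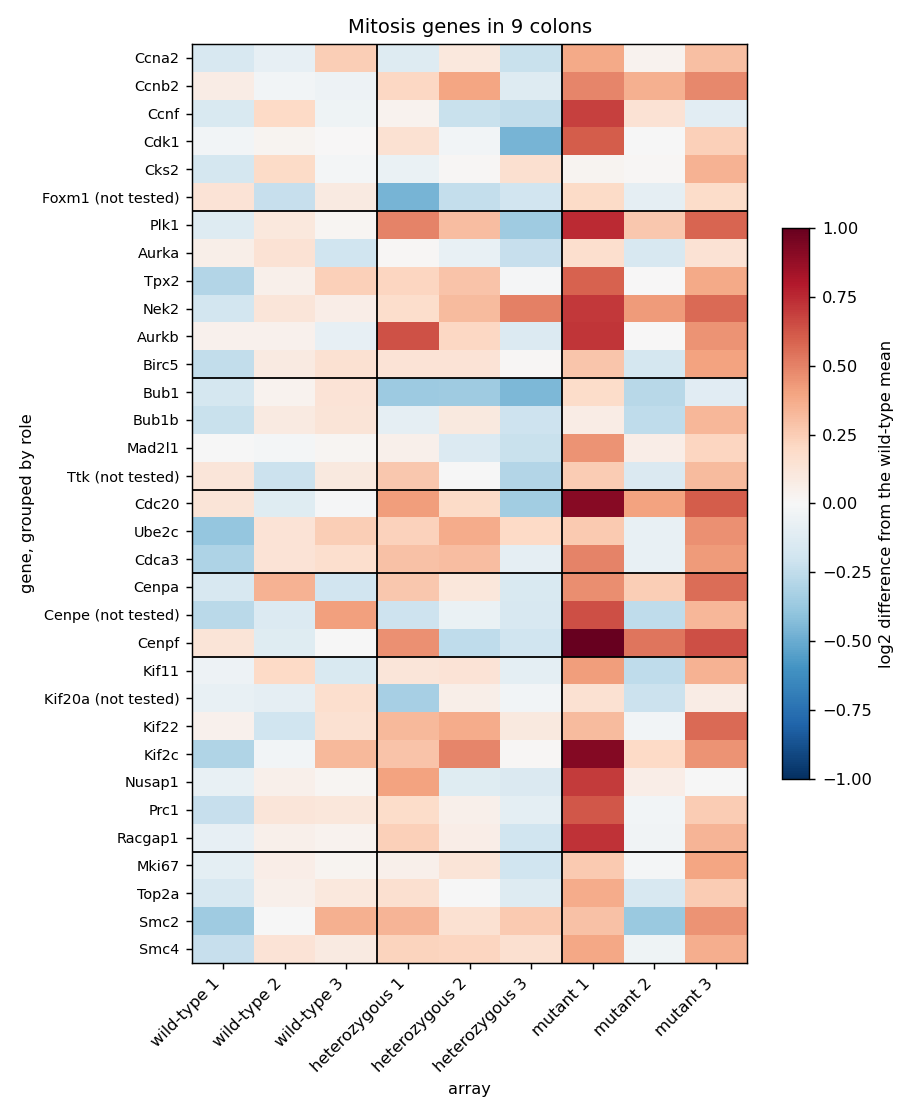
Each cell gives the log2 signal of a mitosis gene (rows, grouped by role with black lines) on 1 of the 9 arrays (columns) minus the mean of the 3 wild-type arrays, in red for higher and blue for lower. Mutant 1 and mutant 3 are red for most genes, while mutant 2 and heterozygous 3 are mixed or blue, as in their means of 8.16 and 8.05.

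All 6 measured genes among the cyclins, Cdk1 and their transcription factor had a higher mean in mutants, with a median log2 fold change of 0.24. Ccnb2, a B-type cyclin that activates Cdk1, had signals of 436, 460.7 and 461 in wild-type, 489.2, 614.7 and 437.1 in heterozygous and 602.6, 592.9 and 675.2 in mutant colons. All mutant arrays lay above all wild-type arrays, but heterozygous 2 lay above mutant 1 and mutant 2 (above mutant 2 alone once normalized). Its log2 fold change in mutants was 0.44 (SE 0.141, unadjusted p = 0.00913), and it was 0.46 without the 3 arrays numbered 1. Cdk1, the kinase that starts mitosis, had signals of 739.8, 843.4 and 840.4 in wild-type, 871.6, 814.4 and 611.5 in heterozygous and 1207.4, 817.3 and 999.3 in mutant colons. Mutant 2 lay within the wild-type range, and the log2 fold change was 0.28 (SE 0.178, unadjusted p = 0.144), or 0.10 without the 3 arrays numbered 1.

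Ccna2, the cyclin that acts in S phase and up to early mitosis, had signals of 935.1, 1070.6 and 1333.4 in wild-type, 989.2, 1219.9 and 980.4 in heterozygous and 1439.9, 1149.2 and 1399.2 in mutant colons. The wild-type and mutant arrays overlapped, and the difference was 0.24 on the log2 scale (SE 0.142, unadjusted p = 0.123), or 0.086 without the 3 arrays numbered 1. Ccnf, an F-box cyclin that helps to limit other proteins in G2, ranged from 65.4 to 105.3 in wild-type and from 86.5 to 129 in mutant colons. Cks2, a small subunit that binds Cdk1, was 1562 ± 223 (SD, n = 3) and 1721 ± 209 (SD, n = 3) in the same groups. Foxm1, the transcription factor of many of these genes, had signals of 48.8, 41.7 and 57.2 in wild-type, 29.7, 41.1 and 46.7 in heterozygous and 52.1, 43.7 and 63.2 in mutant colons. The groups overlapped on this dim probe set, which was not tested and whose log2 fold change was 0.094, or 0.12 without the 3 arrays numbered 1.

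Among the kinases and the chromosome passenger complex, all 6 measured genes were higher in mutants, with a median of 0.36. Nek2, a kinase that separates the centrosomes, had signals of 44.4, 70.5 and 68.4 in wild-type, 64.1, 84.5 and 102.2 in heterozygous and 95, 84.7 and 106.5 in mutant colons. The mutant arrays all lay above the wild-type arrays, by a mean of 0.57 on the log2 scale (SE 0.158, unadjusted p = 0.00417), and by 0.40 without the 3 arrays numbered 1. Plk1, the polo kinase needed for a bipolar spindle and for cytokinesis, had signals of 92.7, 134.8 and 128.6 in wild-type, 159.1, 156.7 and 98.3 in heterozygous and 185.5, 144.4 and 202.3 in mutant colons. Its lowest mutant array lay just above the highest wild-type array, and the log2 fold change was 0.53 (SE 0.216, unadjusted p = 0.0308), or 0.36 without the 3 arrays numbered 1. Aurkb, the kinase of the passenger complex, had a log2 fold change of 0.39 (SE 0.218) and Tpx2, the activator of Aurora A on the spindle, one of 0.32 (SE 0.182). Birc5, the survivin subunit of the same complex, stood at 0.17 (SE 0.152). Without the 3 arrays numbered 1, these were 0.25 for Aurkb, 0.041 for Tpx2 and -0.010 for Birc5. Aurka, the centrosomal Aurora kinase, had signals of 123.4 to 160.2 in wild-type and 119.6 to 165.9 in mutant colons, a deposited range that held the wild-type one, and a log2 fold change of 0.050 (SE 0.154).

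**Figure D3:**
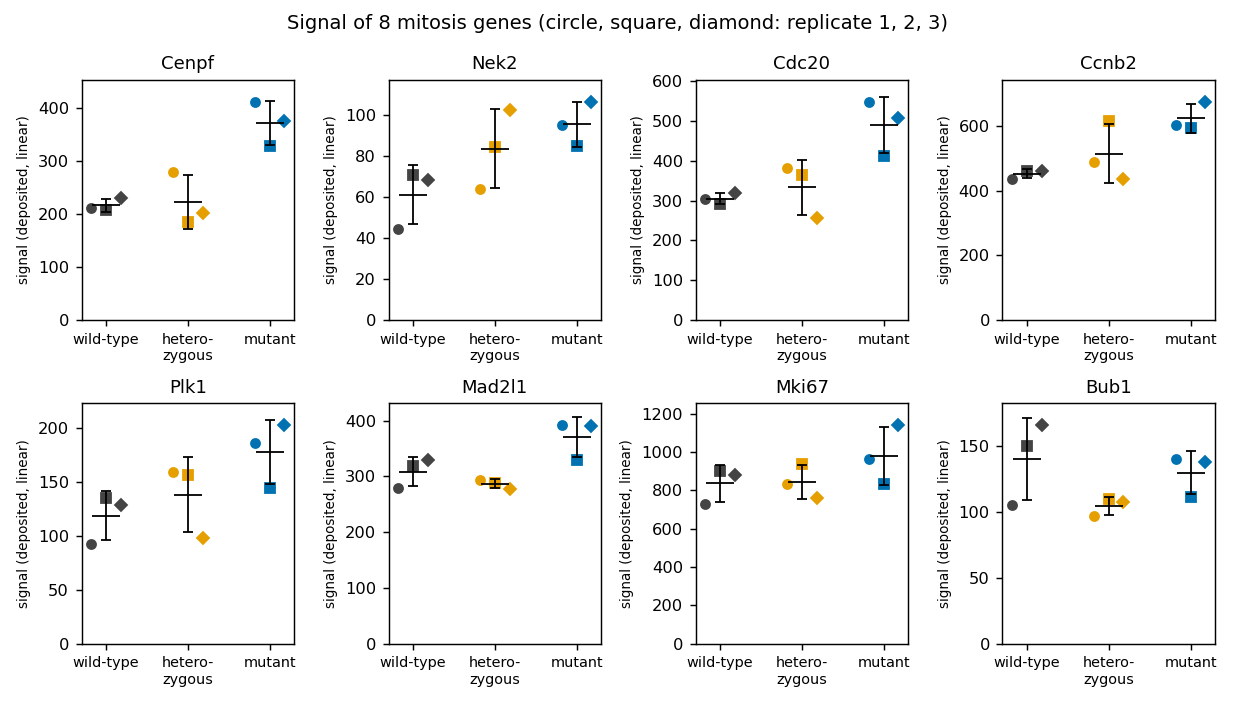
Deposited linear signal (vertical axes, starting at 0) of 8 mitosis genes in the 3 genotypes, with circle, square and diamond for replicate 1, 2 and 3 and with the mean and SD as black bars. The mutant points of Cenpf, Nek2, Cdc20, Ccnb2, Plk1 and Mad2l1 lie above all wild-type points, those of Mki67 and Bub1 do not.

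With all 9 arrays, the spindle checkpoint genes differed least in mutants, with 3 of 4 higher and a median of 0.097. This place among the role groups was not kept without the 3 arrays numbered 1. Mad2l1, which encodes the MAD2 protein that holds back Cdc20, had signals of 278.6, 318.1 and 328.8 in wild-type, 294, 288.2 and 278.1 in heterozygous and 391.7, 329.1 and 389.8 in mutant colons. Mutant 2 exceeded wild-type 3 by less than 1 signal unit, so that the groups barely separated, and the log2 fold change was 0.24 (SE 0.134, unadjusted p = 0.0959), or 0.14 without the 3 arrays numbered 1. Bub1 had signals of 105.7, 150.2 and 166 in wild-type, 96.9, 109.9 and 107.5 in heterozygous and 140.5, 111.4 and 138 in mutant colons. The deposited mutant signals lay inside the wild-type range, while once normalized mutant 1 lay above it and mutant 2 below it. The mean difference was -0.069 on the log2 scale (SE 0.155, unadjusted p = 0.665), or -0.28 without the 3 arrays numbered 1. Bub1b, the BubR1 kinase, stood at 0.051 (SE 0.184), or -0.072 without these arrays. The untested kinase Ttk, which acts at the top of the checkpoint, had signals from 53.8 to 89.5 over the 9 arrays.

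All 3 genes grouped under the anaphase-promoting complex were higher in mutants, with a median of 0.28. Cdc20, the activator that brings substrates to the complex, had signals of 302.7, 291.9 and 319.9 in wild-type, 382.7, 363 and 255 in heterozygous and 548.3, 412.4 and 507.4 in mutant colons. Its mutant arrays lay above all wild-type arrays, while mutant 2 was above heterozygous 1 in deposited signal and just below it once normalized, and the log2 fold change was 0.64 (SE 0.197, unadjusted p = 0.00756), or 0.57 without the 3 arrays numbered 1. Ube2c, the ubiquitin-conjugating enzyme of the complex, had signals of 722.3, 1136.6 and 1227.3 in wild-type, 1176.8, 1339.7 and 1195.8 in heterozygous and 1191.7, 974 and 1418.7 in mutant colons. Wild-type 1 was lowest and the groups otherwise overlapped, with a log2 fold change of 0.21 (SE 0.174), or -0.0022 without the 3 arrays numbered 1. Cdca3, a trigger of mitotic entry that is only listed in this group, stood at 0.28 (SE 0.186), or 0.023 without these arrays.

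The centromere and kinetochore genes had the highest median of the role groups, 0.42 over 3 genes. Cenpf, a large kinetochore protein made in G2, had signals of 211.3, 208.9 and 231.5 in wild-type, 280.4, 186.1 and 202.3 in heterozygous and 412.9, 329 and 375.4 in mutant colons. The mutant arrays lay above all 6 other arrays, and the log2 difference of 0.73 (SE 0.198, unadjusted p = 0.00361) was the largest of the 33 genes. It was 0.65 without the 3 arrays numbered 1. Cenpa, the histone H3 variant that marks centromeres, had signals of 240.4, 403.1 and 280.3 in wild-type, 338.5, 338.1 and 286.5 in heterozygous and 386.8, 365.5 and 487.7 in mutant colons. Wild-type 2 lay above mutant 1 and mutant 2 (above mutant 2 alone once normalized), and the log2 fold change was 0.42 (SE 0.174, unadjusted p = 0.0325), or 0.33 without the 3 arrays numbered 1. The kinesin Cenpe, which carries chromosomes to the spindle equator, was not tested and had overlapping signals, 44.1 to 97.1 in wild-type and 50.5 to 96.4 in mutant colons.

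All 7 genes of kinesins, spindle and cytokinesis were higher in mutants, with a median of 0.28, though Kif20a stood at 0.0032 and was lower, at -0.012 and -0.0014, with values as deposited and with median centring. Kif20a was also lower, at -0.11, without the 3 arrays numbered 1. Kif2c, a kinesin that takes microtubules apart at centromeres, had signals of 60.2, 91.2 and 124.1 in wild-type, 103.2, 136.3 and 99.3 in heterozygous and 160.8, 102.7 and 138 in mutant colons. Wild-type 3 lay above mutant 2, and the log2 fold change was 0.52 (SE 0.222, unadjusted p = 0.0379), but 0.17 without the 3 arrays numbered 1. Kif22, a chromosome-bound kinesin, had signals of 192.4, 191.3 and 252.6 in wild-type, 249.6, 287.6 and 243.9 in heterozygous and 240.2, 207 and 344.2 in mutant colons. Wild-type and mutant arrays overlapped, with a log2 fold change of 0.29 with or without the 3 arrays numbered 1. Racgap1, a part of the centralspindlin complex of cytokinesis, had a log2 fold change of 0.34 (SE 0.188), Prc1, which bundles the central spindle, one of 0.28 (SE 0.171), and Nusap1, a microtubule-bundling protein, one of 0.26 (SE 0.2). Kif11, the motor that pushes spindle poles apart, stood at 0.17 (SE 0.19). Without the 3 arrays numbered 1, these were 0.11 for Racgap1, -7.1e-05 for Prc1, -0.0011 for Nusap1 and 0.025 for Kif11.

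The chromosome structure genes showed a smaller difference: all 4 were higher in mutants, with a median of 0.18. Mki67, the proliferation marker Ki-67 that coats mitotic chromosomes, had signals of 727.4, 900 and 882.6 in wild-type, 834.8, 938.9 and 762.9 in heterozygous and 965.2, 835.5 and 1140.1 in mutant colons. Mutant 2 lay within the wild-type range, and the log2 fold change was 0.21 (SE 0.135, unadjusted p = 0.148), or 0.14 without the 3 arrays numbered 1. Top2a, the topoisomerase that untangles sister chromatids, had signals of 801.7, 1013.7 and 1053.2 in wild-type, 1041.2, 973.3 and 905.8 in heterozygous and 1207.4, 862.2 and 1176.9 in mutant colons. Mutant 1 and mutant 3 were the highest of the 9 and mutant 2 was below 2 of the wild-type arrays (below all 3 once normalized), and the mean difference was 0.16 on the log2 scale (SE 0.148, unadjusted p = 0.317), or -0.031 without the 3 arrays numbered 1. The condensin subunits Smc2 and Smc4 stood at 0.12 (SE 0.223) and 0.24 (SE 0.147), or -0.14 and 0.047 without these arrays.

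In heterozygous against wild-type colons, the mitosis genes lay on both sides of 0. Of the 33 genes, 21 were higher, or 63.6%, against 49% of all probe sets tested, and the median log2 fold change was 0.042. No gene had an adjusted p under 0.05, as was the case for all probe sets tested (0%), and none was higher at an unadjusted p under 0.05, against 4.46%. One was lower at that limit, Bub1, at -0.39 on the log2 scale (SE 0.155, unadjusted p = 0.0283, limma's adjusted p = 0.595), against 3.55% of all probe sets that were lower at it. Its heterozygous arrays overlapped wild-type 1 in deposited signal and lay below all wild-type arrays once normalized. All 4 checkpoint genes had a lower mean in heterozygous colons, with a median of -0.086, while 5 of the 6 kinase and passenger genes had a higher one, with a median of 0.16. The next smallest p-values were those of Nek2, with 0.33 (SE 0.158, unadjusted p = 0.0587), Kif22, with 0.26 (SE 0.17, unadjusted p = 0.149), and Ube2c, with 0.27 (SE 0.174, unadjusted p = 0.153). In deposited signal, no mitosis gene had all 3 heterozygous arrays above or below all 3 wild-type arrays, against 6.03% and 5.9% of all probe sets. Once normalized, Nek2 and Smc4 lay wholly above, 2 of 29 or 6.9% against 7.28%, and Bub1 wholly below, 3.45% against 7.42%, shares no larger than the background. Without the 3 arrays numbered 1, the median was -0.086 and 8 of 33 genes were higher.

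**Figure D4:**
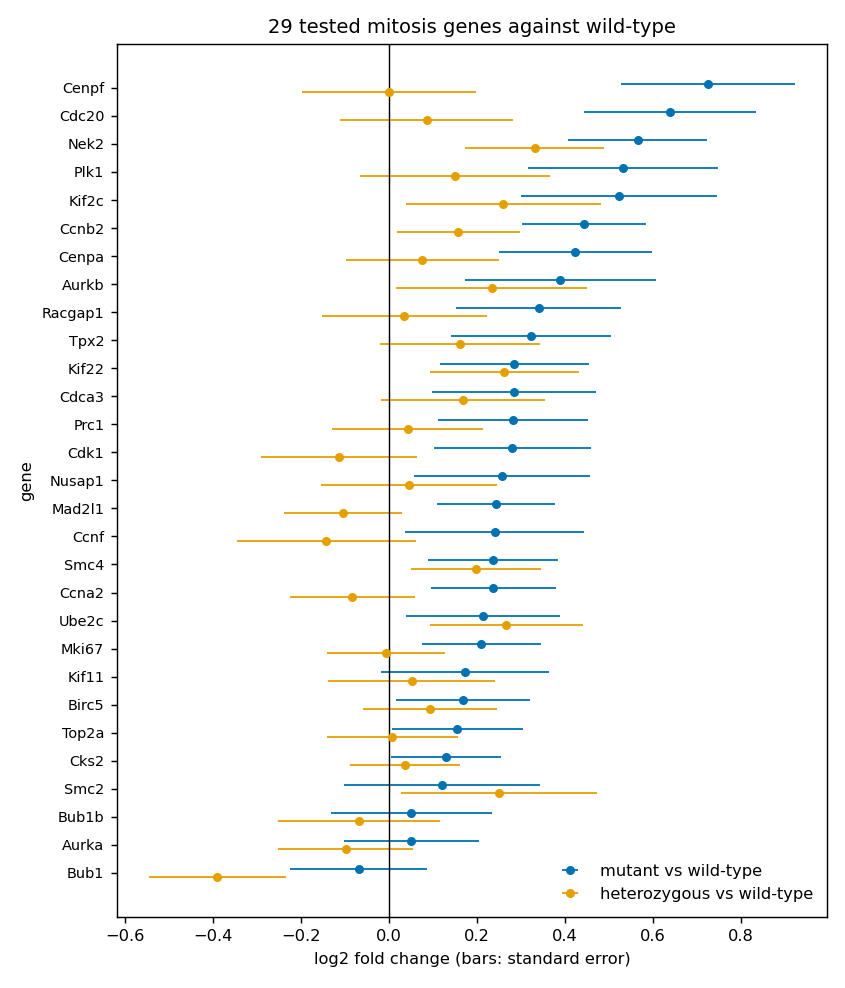
Log2 fold change against wild-type (horizontal axis, bars give the standard error) of the 29 tested mitosis genes (rows, ordered by the mutant value) for mutant (blue) and heterozygous (orange) colons, which share the 3 wild-type arrays. The mutant values run from -0.069 for Bub1 to 0.73 for Cenpf, and the heterozygous values lie on both sides of 0, from -0.39 to 0.33.

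In mutant against heterozygous colons, 31 of the 33 genes were higher in mutants, or 93.9%, against 50.4% of all probe sets, with a median log2 fold change of 0.22. The exceptions were Smc2, at -0.13 (SE 0.223), and Ube2c, at -0.053 (SE 0.174). No mitosis gene had an adjusted p under 0.05, which 3 probe sets, or 0.0221%, had. An unadjusted p under 0.05 was found for 5 of the 29 tested genes, all higher (17.2%), against 4.07% of all probe sets that were higher and 3.49% that were lower. Cenpf stood at 0.73 on the log2 scale (SE 0.198, unadjusted p = 0.00363, limma's adjusted p = 0.496) and Cdc20 at 0.55 (SE 0.197, unadjusted p = 0.0166). Mad2l1 followed with 0.35 (SE 0.134, unadjusted p = 0.0248), Ccna2 with 0.32 (SE 0.142, unadjusted p = 0.0449) and Cdk1 with 0.39 (SE 0.178, unadjusted p = 0.049). For 6 genes, or 20.7% of those tested, all deposited mutant signals lay above all heterozygous ones, and none lay wholly below, against 5.75% and 4.59% of all probe sets. They were Cenpf, Cdc20, Cenpa, Ccnf, Bub1 and Mad2l1. Once normalized, only Cenpf, Bub1 and Mad2l1 among the 29 did so, or 10.3% against 6.35%, and none lay wholly below, against 6.08%. The comparison shares the mutant arrays with that against wild-type, so the values are not a second measurement of the mutants. Without mutant 2, 10 genes reached the unadjusted limit, and without mutant 1 or without heterozygous 3 a single gene did. Without the 3 arrays numbered 1, the median was 0.16, with 29 genes higher and 2 at that limit.

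Arrays that carry the same number were also set against each other, although the labels do not say that the number marks a shared litter or day. For number 1, the median difference of mutant minus wild-type was 0.62 with all 33 genes higher, for number 2 it was -0.085 with 12 higher, and for number 3 it was 0.24 with 28 higher. For heterozygous minus wild-type the medians were 0.29, 0.062 and -0.21, with 29, 20 and 5 genes higher. The direction over the mitosis genes was therefore not the same for the 3 numbers in either comparison.

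Further probe sets of the same genes were available for 17 of the 33. Of their 26 probe sets that were not the brightest, 11 were tested, and 9 of these were higher in mutants than in wild-type, with a median log2 fold change of 0.11. A second probe set of Kif11 stood at 0.58, against 0.17 for its brightest one, and one of Cdc20 at 0.37, against 0.64. The further probe sets of Smc4 stood at -0.059 and -0.0080, against 0.24. Those of Foxm1, none of them tested, stood at 0.47, 0.021 and -0.073, against 0.094 for the brightest. The one at 0.47, with a mean signal of 43.9 against 47.1, had all mutant arrays above all wild-type arrays. The dim second probe set of Bub1 was higher in mutants, at 0.55, so that the direction of Bub1 depended on the probe set. For 6 genes, Foxm1, Aurkb, Cdc20, Kif22, Kif2c and Prc1, the design marks the brightest probe set as one whose probes may match other transcripts.

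Other genes of the cell cycle were read from lists apart from the 33. These lists too were chosen with earlier results of these data known. Of 47 further mitotic genes, which include condensin, Ndc80 complex and cytokinesis genes, none had an adjusted p under 0.05. Of the 47, 40 were higher in mutants than in wild-type, against 51% of all probe sets, with a median of 0.18, and 4 of the 38 tested were higher at an unadjusted p under 0.05, against 1.92%. Hmmr, a spindle protein, had signals of 397.4, 473.2 and 455.2 in wild-type, 498.9, 564.4 and 399 in heterozygous and 712.6, 584.6 and 609.6 in mutant colons, and a log2 fold change of 0.50 (SE 0.164). Spc25, of the Ndc80 complex that binds microtubules at the kinetochore, stood at 0.49 (SE 0.167), and Ect2, the exchange factor that starts cytokinesis, at 0.51 (SE 0.189). These 3 genes were picked for the smallest p of the list. Their deposited mutant signals lay above all wild-type arrays, for Ect2 with 617.7 on mutant 2 against 612.6 on wild-type 3. The same held for 9 of the 38 tested, or 23.7%, against 4.04% of all probe sets. Averaged over the 47 genes, mutants 1, 2 and 3 differed from the wild-type mean by 0.38, 0.0036 and 0.19 on the log2 scale. In heterozygous colons 22 of these 47 genes were higher, with a median of -0.021.

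Genes that act before mitosis differed less in mutants. Of 47 G1 and S phase genes 34 were higher, against 51% of all probe sets, with a median of 0.073, and none of the 41 tested had an unadjusted p under 0.05. The smallest p-values there belonged to genes with a lower mean, among them Pcna, the replication clamp, with a log2 fold change of -0.17 (SE 0.0961), Gins4, of the replicative helicase, with -0.24 (SE 0.139), and the G1 cyclin Ccnd2 with -0.13 (SE 0.0765). Of 14 genes for the core and regulators of the anaphase-promoting complex 10 were higher, with a median of 0.047. Of 13 genes of the DREAM, MuvB and NF-Y complexes 8 were higher, with a median of 0.012. Of 7 inhibitors of cyclin-dependent kinases 6 were higher, with a median of 0.028, and Cdkn1a, the p53 target p21, stood at 0.099 (SE 0.131). None of these genes had an adjusted p under 0.05 in any of the 3 comparisons.

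**Figure D5:**
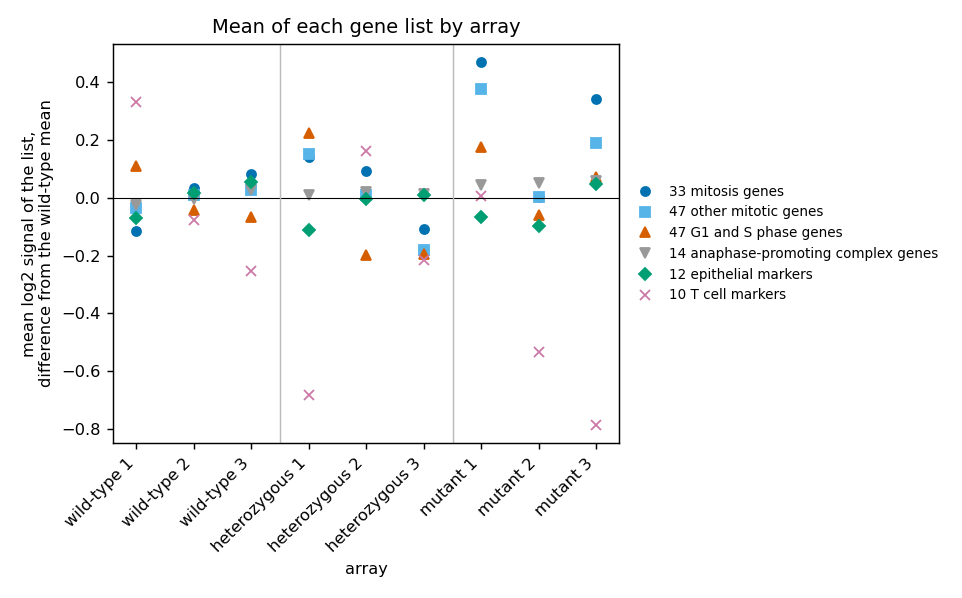
Mean log2 signal of each gene list on each array (horizontal axis) minus the mean of the 3 wild-type arrays (vertical axis), with 1 symbol per list and grey lines between genotypes. The 33 mitosis genes and 47 other mitotic genes are highest on mutant 1 and mutant 3, the epithelial markers stay near 0 on all arrays, and among the 6 lists drawn the T cell markers spread most.

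Markers of the cells in the tissue were measured beside the mitosis genes. The mean log2 signal of 12 epithelial markers was 11.71 to 11.84 in wild-type, 11.67 to 11.79 in heterozygous and 11.69 to 11.83 in mutant colons, and 4 of the 12 were higher in mutants. For 11 crypt base and stem cell markers it was 7.86 to 8.02, 7.91 to 7.98 and 7.82 to 8.002, and 5 were higher. The means of these 2 lists overlapped between all 3 genotypes. In heterozygous against wild-type colons, 1 of the 12 epithelial markers, Cdh1, was higher at an unadjusted p under 0.05, against 4.46% of all probe sets. Of the 8 crypt base markers tested, 1, Sox9, was lower at that limit, with a log2 fold change of -0.37, against 3.55%. For 8 surface colonocyte markers the mean was 10.79 to 11.14, 10.55 to 11.01 and 10.94 to 11.31, highest on mutant 1. Of these 8, 4 were higher in mutants, and 2 (25%), Saa1 and Scnn1a, were so at an unadjusted p under 0.05, against 1.92% of all probe sets. For 6 goblet cell markers the mean was 12.15 to 12.22, 11.97 to 12.11 and 12.06 to 12.27, so that the heterozygous arrays lay below the wild-type ones, and 2 were higher in mutants. Of 10 T cell markers 2 were higher, with a median log2 fold change of -0.35 and mean log2 signals of 6.61 to 7.20 in wild-type, 6.18 to 7.03 in heterozygous and 6.08 to 6.87 in mutant colons. Of the 4 that were tested, 2, Cd3d and Cd8a, were lower in mutants at an unadjusted p under 0.05, against 1.92% of all probe sets that were lower. All 9 macrophage markers were lower in mutants, with a median of -0.26 and means of 8.89 to 9.28, 8.83 to 9.17 and 8.67 to 8.95. All 6 adipocyte markers were lower, with a median of -0.60 and means of 9.73 to 9.90, 9.51 to 10.15 and 8.47 to 9.74. Of the 5 adipocyte markers tested, 2, Fabp4 and Cidec, were lower at an unadjusted p under 0.05, against the same 1.92%. Mutant 1, the array with the highest mitosis signals, differed from the wild-type mean by -1.34 for this list, against -0.27 and -0.057 on mutants 2 and 3. B cell markers, which would mark dividing cells of lymphoid follicles, were near the bottom of the scale, where none of 9 was tested, Ms4a1 lay between 26.6 and 78 and Pax5 between 0.5 and 1.6. Their mean log2 signal was 5.09 to 5.79 in wild-type, 5.10 to 5.37 in heterozygous and 5.16 to 5.62 in mutant colons. Of 10 smooth muscle markers 4 were higher in mutants than in wild-type. Against wild-type, 9 of the 10 were lower in heterozygous colons, with a median of -0.17, and 9 were higher in mutant than in heterozygous colons, with a median of 0.14, where 31 of the 33 mitosis genes were also higher. Of the 9 smooth muscle markers tested, 3 were lower in heterozygous than in wild-type colons at an unadjusted p under 0.05, against 3.55% of all probe sets. Of 8 fibroblast markers 2 were higher in mutants than in wild-type. In heterozygous against wild-type colons 3 of the 8 were higher and 5 lower. There, 4 were lower at an unadjusted p under 0.05, against 3.55% of all probe sets, and 1, Dpt, was higher, against 4.46%. No marker had an adjusted p under 0.05. The part of any of these cell types in the values of the mitosis genes was not tested.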

How the data were processed

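The value table that the authors deposited holds 1 linear signal intensity per probe set for each of the 9 arrays. Per the submitters' processing notes these values come from GCOS, and per the labels about 50 ng of RNA was amplified with the NuGEN Ovation kit. Its settings are unknown here. Each array's trimmed mean is about 500.1, as after scaling to a common level. The number of arrays limits the precision.

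After removal of 64 control probe sets, intensities plus a pseudocount of 16 were log2-transformed and quantile-normalized in R 4.3.3, so a fold change understates that of dim genes. The 40% of the 22626 probe sets with the lowest mean were left out (a linear signal of about 75.5). The other 13576 were fitted for all 9 arrays together with limma 3.58.1 (lmFit, eBayes with trend). P-values were adjusted by Benjamini-Hochberg with a threshold of 0.05. Signals printed per array, and overlap between groups unless called normalized, are as deposited; fold changes, means over genes and the order of the 9 arrays are from normalized values. Gene symbols come from GEO's platform annotation, where 20380 probe sets have 1 symbol, 691 several and 1555 none, and only the first kind was used.

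The members and lists were chosen with earlier results of these data known, so no p-value adjusted over a list is given. Values on every array are given for the 8 genes with the smallest p in mutant against wild-type, the 4 smallest in each other comparison, and Mki67, Cdk1, Top2a, Plk1 and Foxm1; from each other list up to 3 genes with the smallest p could be named. In the test on simulated data for mutant against wild-type, run on 13576 probe sets, 26% of 1.5-fold and 82% of 2-fold changes were recovered. The same run gave 8 false calls. The share recovered in the measured data was not tested. There, the tested Shmt1 probe sets at -2.19, -0.89 and -0.79 had limma's adjusted p of 2.64e-05, 0.596 and 0.309 in mutant against wild-type. The replicate numbers were not taken as pairs. Alternatives covered the scaling, pseudocount, filter, eBayes settings, array weights, a replicate block, the beta-actin ratio, the choice of probe set and leaving out arrays. The labels call the samples biological replicates. Figures were drawn with matplotlib 3.10.9.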

Additional observations from a re-analysis of the deposited data

How the results depend on the processing

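No mitosis gene had limma's adjusted p under 0.05 in any of the 24 alternative settings; the lowest values were 0.091 for Cenpf (mutant against wild-type, array weights), 0.0831 for Bub1 (heterozygous against wild-type, array weights) and 0.105 for Cenpf (mutant against heterozygous, replicate block). Of 42 log2 fold changes of single genes, 27 kept their sign in all 24. Same-numbered arrays deviated with correlations from -0.059 to 0.46, and differently numbered arrays with correlations from -0.51 to 0.27. The same-numbered values were 0.31, 0.29 and -0.050 for number 1, 0.026, 0.012 and -0.059 for number 2 and 0.41, 0.46 and 0.22 for number 3. A shared effect of numbers 1 and 3 is thus not excluded. The numbers were not taken as pairs, as the labels do not say that they mark a shared litter or day. With the replicate block, 5 probe sets passed in mutant against wild-type and 8 in mutant against heterozygous. In mutant against wild-type, 9 passed with array weights, 5 with the beta-actin covariate and 9 without the 3 arrays numbered 1, against 3 as reported. In heterozygous against wild-type, 134 passed with array weights against 0. In mutant against heterozygous, 5 passed with only these genotypes in the fit. Leaving out 1 array gave 2 to 4, 0 to 3 and 1 to 7 in the 3 comparisons.

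Mitosis genes with an unadjusted p under 0.05 numbered 3 in mutant against wild-type and 2 in mutant against heterozygous without the 3 arrays numbered 1. With the replicate block they numbered 6 and 4 in these comparisons. In heterozygous against wild-type there were 0 with values as deposited, 2 with median centring, 2 without the trend, 3 with array weights and 2 with the beta-actin covariate; there, 8 genes were higher without the 3 arrays numbered 1. Leaving out 1 array gave 4 to 21, 0 to 2 and 1 to 10. The cause was not tested.

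In mutant against wild-type, these log2 fold changes changed sign: with array weights Cks2 -0.076, Aurka -0.098, Bub1b -0.097 and Kif11 -0.051; without the 3 arrays numbered 1 Ccnf -0.057, Birc5 -0.010, Bub1b -0.072, Ube2c -0.0022, Cenpe -0.093, Kif20a -0.11, Nusap1 -0.0011, Prc1 -7.1e-05, Top2a -0.031 and Smc2 -0.14; Kif20a -0.012 as deposited and -0.0014 with median centring; and Bub1 0.24 with the mean of its probe sets. Leaving out 1 array, Foxm1 ranged from -0.020 to 0.19, Aurka from -0.050 to 0.16, Bub1 from -0.19 to 0.034, Bub1b from -0.090 to 0.21, Kif20a from -0.072 to 0.11 and Smc2 from -0.056 to 0.37.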
